A study of Homo sapiens with 12 samples.

Results

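The 37 genes of the human mitochondrial genome were taken as every row of the count tables whose name starts with MT-, out of 60675 gene rows in all. They are 13 mRNAs, 2 rRNAs and 22 tRNAs. The libraries came from 2 triple-negative breast cancer cell lines, MDA-MB-468, grown in DMEM, and HCC1187, grown in RPMI-1640. Cells of each line were transfected for 48 h with an shRNA against the long non-coding RNA SOX9-AS1 or with a control shRNA, sh-LacZ, which targets a bacterial gene. Each of the 4 groups has 3 libraries, called S1 to S3 (MDA-MB-468 sh-LacZ), S4 to S6 (MDA-MB-468 sh-SOX9-AS1), S7 to S9 (HCC1187 sh-LacZ) and S10 to S12 (HCC1187 sh-SOX9-AS1). The series asks what changes when SOX9-AS1 is targeted. Whether the 3 libraries behind a mean were grown as separate cultures is not stated, so p-values measure only the spread between these libraries, which may be technical.

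The mitochondrial genome is a small circular chromosome, present in many copies per cell, that encodes core subunits of the respiratory chain together with the rRNAs and tRNAs that translate them. Both strands are transcribed into long precursors, which are cut mostly at the tRNAs that lie between the other genes. Most of the mRNAs then receive a short poly(A) tail, which for several of them also completes the stop codon, while MT-ND6, the mRNA of the light strand, is known to carry little or no tail. The rRNAs have very short tails and mature tRNAs end in the letters CCA, so a library kit that selects poly(A) RNA, as the stranded TruSeq mRNA kit used here does, does not recover these classes alike.

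Neighbouring genes of this genome touch or overlap, which limits how reads can be given to single genes. MT-ATP8 and MT-ATP6 share 46 bases and MT-ND4L and MT-ND4 share 7. The sequences below, from the GENCODE v29 transcripts (GRCh38), show both overlaps, with the start codon of MT-ATP6 in capitals in the first and the shared bases in capitals in the second.
MT-ATP8 and MT-ATP6 shared stretch, chrM:8527-8572, plus strand: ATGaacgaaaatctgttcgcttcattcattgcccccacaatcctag
MT-ND4L end, chrM:10747-10766, plus strand: taaacctactccaATGCTAA

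Of the 13 mRNAs, 6 end on 1 or 2 letters of a stop codon in the annotation (MT-ND1, MT-ND2, MT-CO3, MT-ND3, MT-ND4 and MT-CYB) and 7 end on a full one. The last 18 bases of 4 mRNAs that the comparisons turn on are printed here with the stop letters in capitals.
MT-CO3 end, chrM:9973-9990, plus strand: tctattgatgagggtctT
MT-CYB end, chrM:15870-15887, plus strand: aaatactcaaatgggccT
MT-CO2 end, chrM:8252-8269, plus strand: cccgtatttaccctaTAG
MT-ND6 end, chrM:14149-14166, minus strand: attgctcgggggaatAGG

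Among the tRNAs, 4 are printed because they passed a test below or held most of the tRNA counts. The anticodon is in capitals. MT-TL1 carries leucine, MT-TT threonine, MT-TP proline and MT-TQ glutamine.
MT-TL1, chrM:3230-3304, plus strand: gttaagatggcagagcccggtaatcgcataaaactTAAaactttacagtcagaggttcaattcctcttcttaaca
MT-TT, chrM:15888-15953, plus strand: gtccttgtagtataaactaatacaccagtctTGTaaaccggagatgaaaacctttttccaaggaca
MT-TP, chrM:15956-16023, minus strand: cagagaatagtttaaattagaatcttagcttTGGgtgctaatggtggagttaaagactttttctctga
MT-TQ, chrM:4329-4400, minus strand: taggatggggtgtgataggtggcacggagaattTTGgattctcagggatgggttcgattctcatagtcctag

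All counts here come from lane 1 of each library, with 24 of 36 count columns unused. Library totals in that lane ran from 6026376 to 10160040 counts. The targeted gene, SOX9-AS1, stood in HCC1187 at 24, 13 and 17 counts in the controls and at 8, 5 and 9 under the shRNA (log2 fold change −1.08 ± 0.36 SE, adjusted p = 0.0349, n = 3 per group), by edgeR's quasi-likelihood test with Benjamini-Hochberg adjustment over all genes tested, the test of every gene below. In MDA-MB-468 it did not pass (−0.30 ± 0.20, adjusted p = 0.417), and its libraries there are named by their shRNA label throughout. S4 stood apart from S5 and S6: the chi-square per degree of freedom over genes was 26.4 for S4 against S5, 31.8 against S6 and 3.67 for S5 against S6. Across 15032 genes, which are not independent replicates, its log2 CPM correlated with the 3 controls at Pearson's r of 0.989 to 0.994, and with S5 and S6 at 0.974 and 0.971, so S4 lay closer to the control libraries than to the others of its label. It is also missing from the authors' sample table, which lists 11 of the 12 libraries. The gene fits of MDA-MB-468 were run with and without it, and numbers of passing genes are given for both. S4 was set apart on these same counts, so every fit without it favours larger changes and more passing genes. Fold changes of single genes are often given from a single fit. The labels call both lines basal-like, but 4 of the 6 basal markers, KRT5, KRT14, KRT6B and TP63, had at most 3 counts in every HCC1187 library. The other two, EGFR and KRT17, averaged 59.2 and 9.31 CPM in the HCC1187 controls and 5669 and 567 CPM in those of MDA-MB-468. Epithelial markers were lower in HCC1187 too: EPCAM, KRT8, KRT18, KRT19 and CDH1 together averaged 316 CPM in its controls and 4948 CPM in those of MDA-MB-468. Among them KRT19 had at most 1 count in every HCC1187 library, and EPCAM averaged 5.37 against 371 CPM in the controls. The leukocyte markers PTPRC, CD3E and LYZ had at most 3 counts in every library of either line.

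Transcripts of the mitochondrial genome took 6.40% to 7.01% of all counts in the MDA-MB-468 controls and 4.39% to 5.21% in the HCC1187 controls. The 13 mRNAs alone held 5.75%, 5.28% and 5.68% in S1 to S3 and 4.50%, 3.65% and 3.58% in S7 to S9. The rRNAs held 1.26%, 1.114% and 1.04% in S1 to S3 and 0.710%, 0.763% and 0.807% in S7 to S9. In both classes the controls of the lines did not overlap, with MDA-MB-468 the higher. The tRNA rows summed to 37.6, 30.5 and 24.3 CPM, the counts scaled to 1e6 of the library total, in S1 to S3 and to 31.5, 28.1 and 29.2 in S7 to S9, and there the lines overlapped. In these bulk libraries fewer cells of a type and less RNA per cell cannot be told apart, nor can more mitochondrial RNA and less of everything else.

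Under sh-SOX9-AS1 the mRNA share in HCC1187 was 4.32%, 4.57% and 4.298%, so S11 lay above the highest control, S7 at 4.50%, and S10 and S12 among the controls. The rRNA share there was 1.00%, 1.21% and 0.798%, so S10 and S11 lay above all controls and S12 among them. In MDA-MB-468 the mRNA share was 5.10% in S4, below its controls, and 7.05% and 8.24% in S5 and S6, above them. The rRNA share of that line was 1.03%, 0.888% and 1.03%, with S5 the lowest and S4 and S6 close under the lowest control. Over libraries the log2 difference of the mRNA sum was 0.18 in HCC1187 (exact two-sided permutation p = 0.3) and 0.26 in MDA-MB-468 (exact permutation p = 0.4). For the rRNA sum it was 0.38 (exact permutation p = 0.2) and −0.21 (exact permutation p = 0.1). With 3 libraries against 3 this test cannot go below 0.1, and over the 33 such tests of sums and ratios run here that value becomes 0.22 after adjustment.

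**Figure D1:**
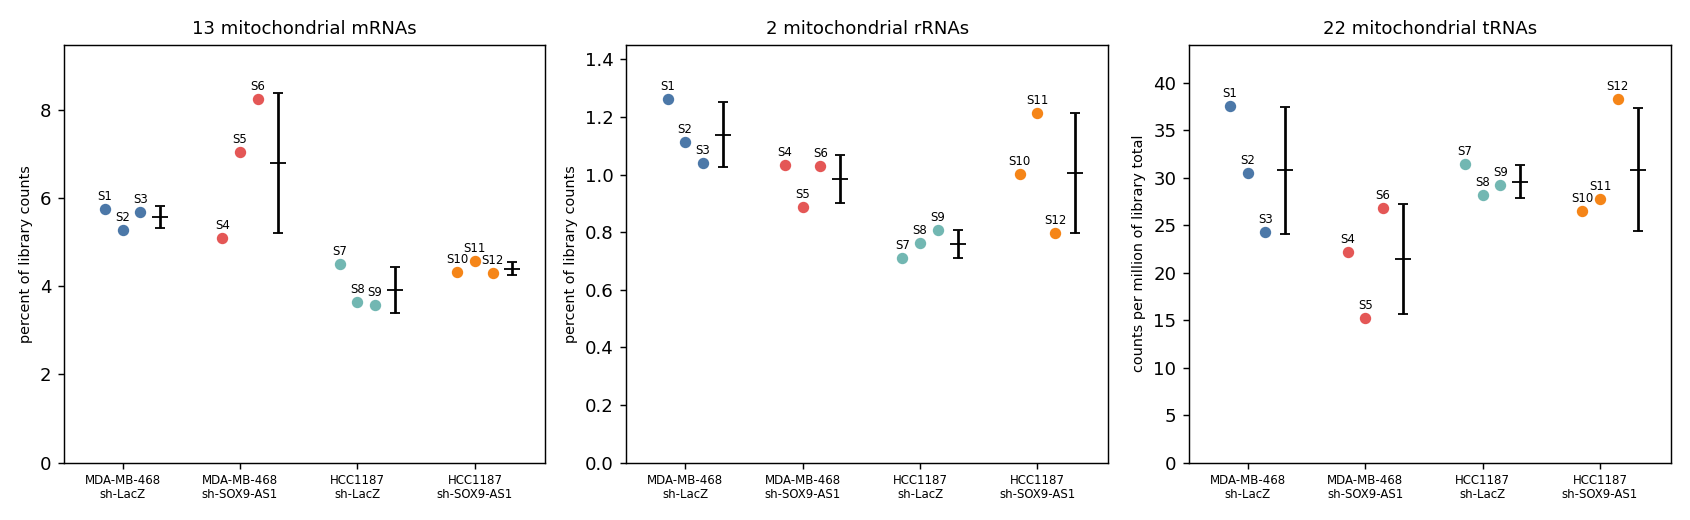
Share of library counts held by the 13 mRNAs and the 2 rRNAs, in percent, and the summed level of the 22 tRNAs in CPM, for each library of the 4 groups (points, named S1 to S12; bars, mean and SD, n = 3). In MDA-MB-468 sh-SOX9-AS1 the mRNA share is 5.10% in S4 and 7.05% and 8.24% in S5 and S6, while the HCC1187 groups overlap.

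Per kilobase of gene, the mRNAs of the cytochrome c oxidase subunits led the order in both lines. These subunits form the catalytic core of complex IV, which passes electrons to oxygen. MT-CO2 averaged 11403 ± 657 CPM per kb (SD, n = 3) in the MDA-MB-468 controls and 5822 ± 1002 in those of HCC1187, and MT-CO1 averaged 10441 ± 458 and 5660 ± 427 (CPM here and in all gene levels below use library totals scaled by TMM over the 12 libraries). Their ranges overlapped in each line, so the first place is not settled. The next in MDA-MB-468 were MT-CO3 at 8304 ± 579 and MT-ND4 at 7898 ± 417, which overlapped each other. In HCC1187 each gene from MT-CO2 down to MT-ATP8, in place 8 at 3170 ± 880, overlapped the next, and all libraries of MT-ATP8 lay above those of MT-CYB.

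The lowest of the 15 rRNA and mRNA genes per kilobase in both lines was MT-ND6, the complex I subunit encoded on the light strand, at 91.1 ± 6.40 CPM per kb in MDA-MB-468 and 221 ± 22.9 in HCC1187. The next lowest was MT-RNR1, the small-subunit rRNA, at 1191 ± 143 and 1068 ± 22.7. The large-subunit rRNA MT-RNR2 stood at 7255 ± 705 and 3848 ± 345. Both rRNAs lie side by side in the genome (chrM:648-1601 and chrM:1671-3229, plus strand, with MT-TV between them). The levels of rRNAs, mRNAs and MT-ND6 reflect a poly(A) selection as well as the amount of each RNA, and how much each contributes was not tested.

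**Figure D2:**
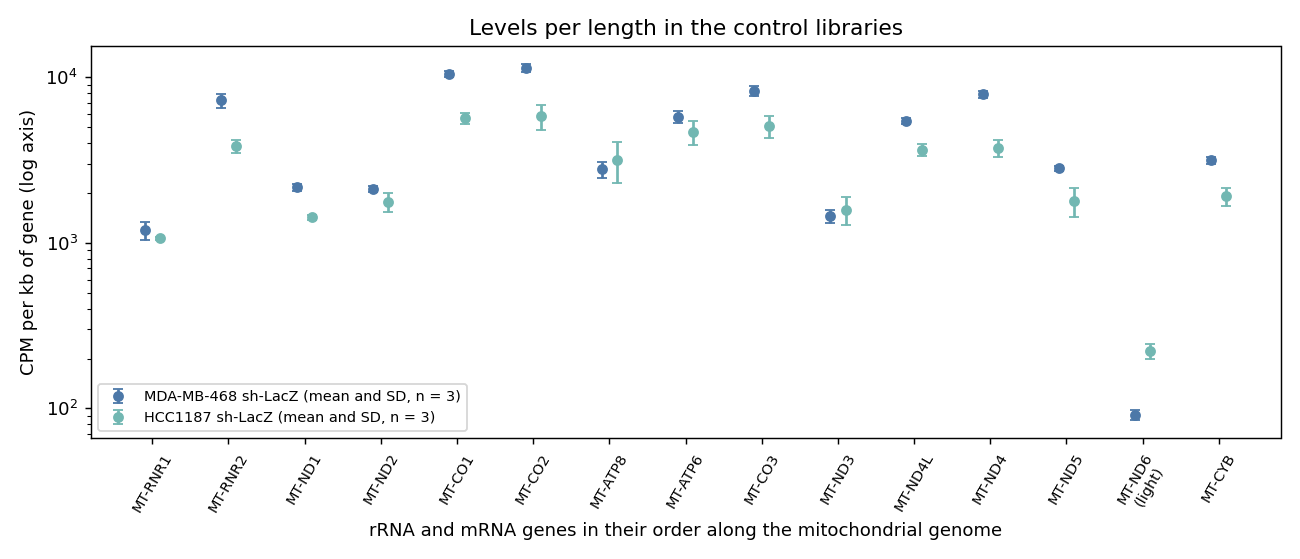
Level of the 2 rRNAs and 13 mRNAs in the control libraries of each line, in CPM per kb of gene on a log axis (points, mean; bars, SD, n = 3), in genome order. MT-CO1 and MT-CO2 are the highest in both lines and MT-ND6 the lowest, and MT-ND6 is one of the few genes with the HCC1187 level above that of MDA-MB-468.

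The first comparison set the HCC1187 controls against the MDA-MB-468 controls. Most mRNAs of the heavy strand and MT-RNR2 were lower in HCC1187, and MT-ND6, on the light strand, was higher. MT-TP and MT-TQ, also on the light strand, were higher too. They had enough counts to be tested only through the HCC1187 libraries, so that direction was largely set by the filter on low counts. Of 37 genes, 21 had enough counts to be tested, 3 were higher in HCC1187, 12 were lower and 6 did not pass. Among all 15592 genes tested 43.6% were higher and 40.4% lower, so a passing gene was the rule between these lines. The median log2 difference of the 13 mRNAs was −0.59, against 0.06 over all genes. The line, its medium and its count table cannot be told apart.

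Of the 7 complex I mRNAs 5 were lower in HCC1187. MT-ND4, which encodes a proton-pumping subunit, measured 11414, 10274 and 10961 CPM in the MDA-MB-468 controls and 5806, 4705 and 4937 CPM in the HCC1187 controls (log2 fold change −1.07 ± 0.09). The lines did not overlap, and MT-ND5 (−0.64 ± 0.11), MT-ND1 (−0.59 ± 0.07) and MT-ND4L (−0.57 ± 0.08), also complex I subunits, were lower without overlap too. MT-ND2 was lower by a smaller step (−0.25 ± 0.09, adjusted p = 0.0124), and its libraries overlapped. MT-ND3, another complex I subunit, had 0.14 ± 0.10 and did not pass. The 3 complex IV mRNAs were all lower, MT-CO2 with −0.96 ± 0.10, MT-CO1 with −0.87 ± 0.09 and MT-CO3 with −0.70 ± 0.10, and so was MT-CYB, the complex III subunit cytochrome b (−0.71 ± 0.09). Of the ATP synthase mRNAs MT-ATP6, a subunit of its proton channel, was lower (−0.29 ± 0.10, adjusted p = 0.0110), while MT-ATP8, which overlaps it, had 0.20 ± 0.13 and did not pass.

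MT-RNR2 was lower in HCC1187, with 12528, 11014 and 10391 CPM in the MDA-MB-468 controls and 5479.8, 5967 and 6553 CPM in those of HCC1187 (−0.90 ± 0.09, adjusted p = 7.11e-09). MT-RNR1 stood at 1292, 1079.9 and 1036 CPM against 1011, 1001 and 1043 CPM, overlapped, and did not pass (−0.15 ± 0.08, adjusted p = 0.0982). The ratio of MT-RNR1 to MT-RNR2 counts was therefore 0.103, 0.0980 and 0.0997 in MDA-MB-468 and 0.185, 0.168 and 0.159 in HCC1187, without overlap and 1.70-fold apart (exact permutation p = 0.1, the smallest possible).

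MT-ND6, MT-TP and MT-TQ, on the light strand, went the other way, the tRNAs with the limit of the count filter given above. MT-ND6 measured 51.6, 46.7 and 45.1 CPM in the MDA-MB-468 controls and 124.6, 121 and 102 CPM in the HCC1187 controls, a log2 fold change of 1.29 ± 0.09. As a share of the mitochondrial mRNA counts it was 0.0819%, 0.0814% and 0.0722% in MDA-MB-468 and 0.303%, 0.364% and 0.303% in HCC1187, a 4.11-fold difference (exact permutation p = 0.1). MT-TP, at 4, 13 and 9 counts against 35, 36 and 32, had 1.69 ± 0.34 (adjusted p = 9.53e-05), and MT-TQ, at 16, 7 and 5 counts against 23, 31 and 29, had 1.29 ± 0.34 (adjusted p = 0.00151). The 8 light-strand tRNAs together held 10.6%, 13.7% and 14.9% of the tRNA counts in MDA-MB-468 and 34.01%, 40.3% and 31.7% in HCC1187. No library of one line reached those of the other (2.72-fold, exact permutation p = 0.1). The kit keeps the strand, but whether counting used the strand is not stated, so reads of light-strand genes and antisense reads of the heavy strand cannot be told apart.

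MT-TT, on the heavy strand beside MT-TP, was the most lowered member in HCC1187: 195, 111 and 75 counts in S1 to S3 and 29, 21 and 23 in S7 to S9 (−2.64 ± 0.26). It made up most of the tRNA counts of the MDA-MB-468 controls together with MT-TL1. The planned sum of all tRNAs was 0.976-fold in HCC1187 and overlapped (exact permutation p = 0.9). Without these 2 genes, which was not a planned sum, it was 1.99-fold higher in HCC1187, without overlap (exact permutation p = 0.1). Leaving out MT-TT, the most lowered member, favours that direction. Scaling by library totals alone moved the median of all genes from 0.06 to 0.29. Under it MT-RNR1 turned to 0.09 ± 0.08, MT-ATP6 and MT-ND2 no longer passed, and MT-ND3, MT-ATP8 and MT-TL1 passed as higher.

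**Figure D3:**
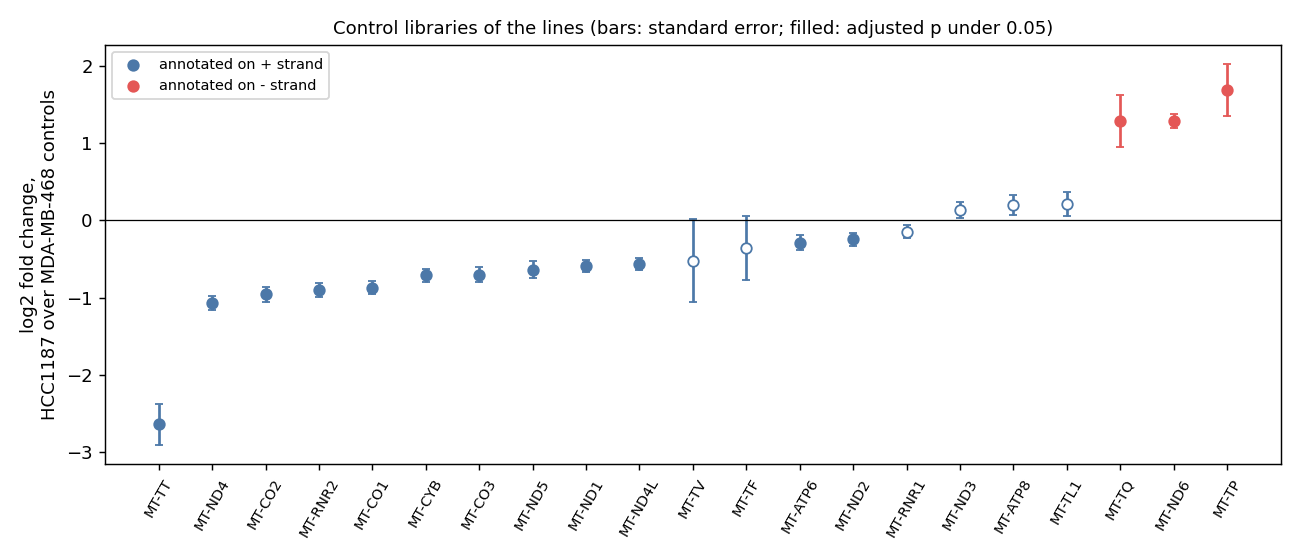
Log2 fold change of each tested mitochondrial gene, HCC1187 over MDA-MB-468 control libraries, with its standard error (filled points, adjusted p under 0.05; colour, annotated strand; n = 3 per line). The 3 genes on the minus strand, MT-TQ, MT-ND6 and MT-TP, lie between 1.29 and 1.69, and the passing genes on the plus strand between −2.64 and −0.25.

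The second comparison asked which of these transcripts changed under sh-SOX9-AS1 in HCC1187. MT-RNR1 rose close to 1.90-fold and MT-ND6 fell 1.33-fold. Of 23 genes tested these were the only ones to pass, 1 higher and 1 lower, against 9.78% higher and 13.1% lower among all 14970 genes, so the share of passing members was below that of all genes in each direction. The median log2 change of the 13 mRNAs was 0.06, beside 0.01 over all genes.

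MT-RNR1 measured 1011, 1001 and 1043 CPM in the control libraries and 1989, 2217 and 1641 CPM in S10 to S12. All 3 sh-SOX9-AS1 libraries lay above all controls, and the log2 fold change was 0.93 ± 0.10 (adjusted p = 6.88e-07). MT-RNR2 stood at 5479.8, 5967 and 6553 CPM and then at 6793, 8756 and 5528 CPM, overlapped, and did not pass (0.22 ± 0.13, adjusted p = 0.217). The ratio of MT-RNR1 to MT-RNR2 counts, which does not depend on scaling, was 0.185, 0.168 and 0.159 in the controls and 0.293, 0.253 and 0.297 under the shRNA (1.65-fold higher, no overlap, exact permutation p = 0.1). In these libraries the summed level of genes of the misc_RNA biotype, mostly small RNAs without long poly(A) tails, also differed: 37.1, 34.8 and 45.8 CPM in the controls and 365, 192 and 214 CPM under the shRNA. Histone genes, whose mRNAs are known to lack such tails, summed to 774 to 788 CPM in the controls and 775 to 843 CPM under the shRNA. Genes of the snoRNA biotype summed to 44.2 to 47.3 CPM and then to 53.8 to 58.6 CPM, without overlap. Those of the snRNA and scaRNA biotypes overlapped. The part of tail length or of selection in the MT-RNR1 result was not tested.

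**Figure D4:**
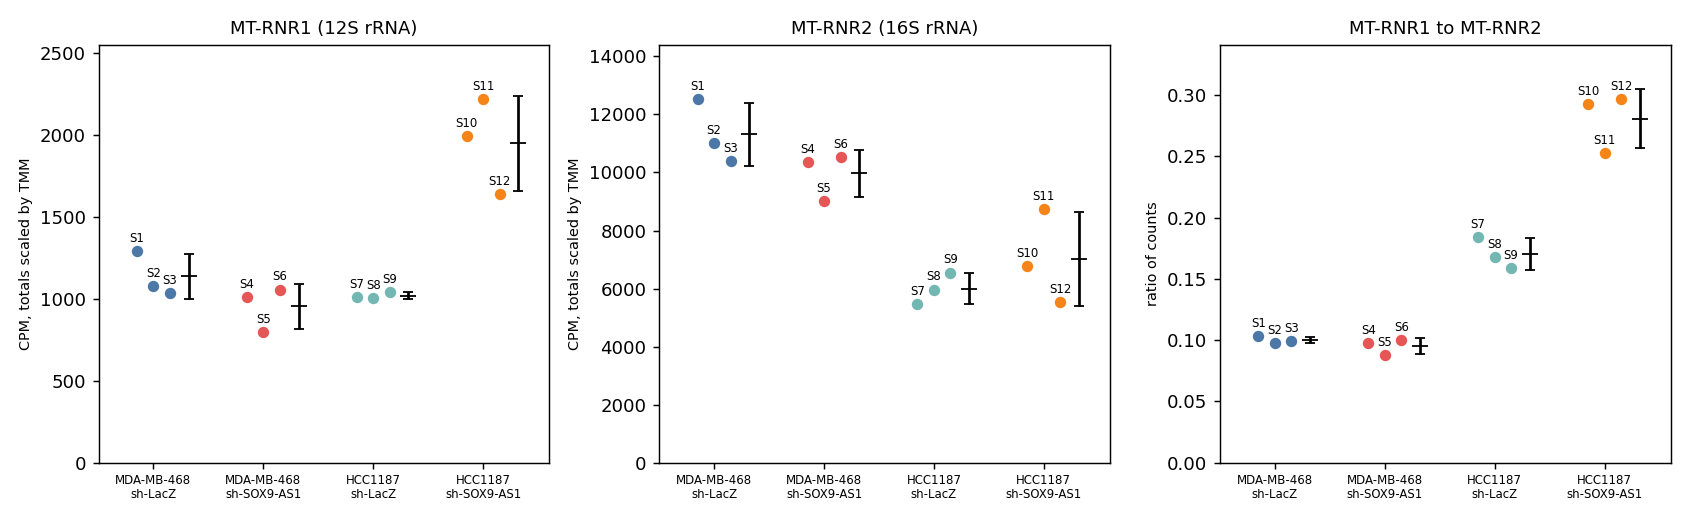
MT-RNR1 and MT-RNR2 in CPM with library totals scaled by TMM, and the ratio of their counts, in each library (points; bars, mean and SD, n = 3). In HCC1187 the ratio is 0.159 to 0.185 in the control libraries and 0.253 to 0.297 under sh-SOX9-AS1, and in MDA-MB-468 it stays between 0.0881 and 0.103.

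MT-ND6 fell from 124.6, 121 and 102 CPM to 79.6, 97.3 and 87.5 CPM, without overlap (−0.41 ± 0.10, adjusted p = 0.00437). The call is lost when all 12 libraries share one fit (adjusted p = 0.157). As a share of mitochondrial mRNA counts it was 0.210%, 0.235% and 0.2265% under the shRNA, below the 0.303% to 0.364% of the controls (exact permutation p = 0.1). In MDA-MB-468 this share was lower too, at 0.0574%, 0.0695% and 0.0660% in S4 to S6 beside 0.0722% to 0.0819% (exact permutation p = 0.1). The level of MT-ND6 did not pass in MDA-MB-468 (0.04 ± 0.21, adjusted p = 0.927). The other 6 complex I mRNAs did not pass in HCC1187. MT-ND1 had 0.26 ± 0.10 (adjusted p = 0.0601), with 1405, 1379.9 and 1297 CPM in the controls and 1431, 1569 and 1915 CPM under the shRNA, which did not overlap. MT-ND2 had 0.36 ± 0.14 (adjusted p = 0.0734) and rested on S12 at 3232 CPM, beside 1774 and 2138 CPM in S10 and S11 and 1620 to 2102 CPM in the controls. The complex III, IV and V mRNAs lay between −0.01 for MT-ATP8 and 0.19 for MT-CO3, and all of them overlapped their controls.

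S12 also stood out in the tRNAs of HCC1187. MT-TM, the methionine tRNA, had 55 counts there, against 6 and 6 in S10 and S11 and 8 to 12 in the controls. It did not pass with all libraries (1.24 ± 0.49, adjusted p = 0.0691). MT-TT had 7, 11 and 24 counts under the shRNA against 29, 21 and 23 (−0.61 ± 0.30, adjusted p = 0.152), and MT-TQ 8, 17 and 18 against 23, 31 and 29 (−0.74 ± 0.30, adjusted p = 0.0766). The other tested tRNAs, MT-TF (0.81 ± 0.36), MT-TV (0.35 ± 0.54), MT-TE (0.28 ± 0.41), MT-TL1 (0.04 ± 0.15) and MT-TP (−0.07 ± 0.31), did not pass. The sum of all tRNAs was 26.55, 27.8 and 38.3 CPM against 28.1 to 31.5 CPM, and the groups overlapped.

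In MDA-MB-468 with all 6 libraries, 0 of 18 tested mitochondrial genes passed, in edgeR, DESeq2 and limma-voom alike, and 4 of them had an unadjusted p under 0.05 in edgeR. Over all 13638 genes tested 1 passed (0.00733%), while 2554 had an unadjusted p under 0.05. The median log2 change of the 13 mRNAs was 0.19, beside −0.0009 over all genes. The largest changes among the mRNAs were those of MT-CO3 (0.73 ± 0.25), MT-CO2 (0.66 ± 0.22) and MT-CYB (0.60 ± 0.20), each with adjusted p = 0.208.

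These 3 mRNAs differed among the libraries labelled sh-SOX9-AS1. MT-CO3, the third core subunit of complex IV, measured 6673, 5998 and 6861 CPM in the controls, 6386 in S4, and 11606 and 14442 in S5 and S6. MT-CO2 stood at 8168, 7299 and 7933 CPM, at 7809 in S4, and at 13224 and 16016 in S5 and S6. MT-CYB stood at 3626, 3411 and 3770.2 CPM, at 3610.4 in S4, and at 5974 and 6834 in S5 and S6. In each case S4 lay among the controls while S5 and S6 lay above all of them.

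Without S4 (3 controls against 2 libraries, a fit described after its values were seen) 7 of 19 tested genes were higher and 4 lower, beside 20.0% higher and 20.7% lower among all 13947 genes. Over all genes 1 passed with S4, while 2791 were higher and 2885 lower without it. Leaving out the library of its label nearest the controls favours passing genes, so p-values of this fit overstate the support. The largest rises were those of 2 complex IV mRNAs and cytochrome b: MT-CO3 by 0.99 ± 0.09 (adjusted p = 1.16e-06), MT-CO2 by 0.90 ± 0.09, and MT-CYB by 0.82 ± 0.08. MT-ND2 rose by 0.58 ± 0.08 and MT-CO1, the other complex IV mRNA, by 0.48 ± 0.08. MT-ATP8 (0.52 ± 0.14, adjusted p = 0.00937) and MT-ND4L (0.30 ± 0.10, adjusted p = 0.0230) rose as well. Without S6 too, where S5 is the lone library of its arm and is assumed to vary like the controls, they had 0.14 (adjusted p = 0.396) and 0.10 (adjusted p = 0.425), and without S2 too MT-ND4L had 0.27 (adjusted p = 0.102). Their overlapping partners MT-ATP6 (0.17 ± 0.10) and MT-ND4 (0.04 ± 0.09) did not pass. The count ratio of MT-ATP8 to MT-ATP6 was 0.135 to 0.158 in the controls and 0.172, 0.164 and 0.207 in S4 to S6, S4 included (exact permutation p = 0.1), and that of MT-ND4L to MT-ND4 0.146 to 0.152 and then 0.159, 0.172 and 0.186 (exact permutation p = 0.1). Of the 7 mRNAs with a full stop codon in the annotation 4 rose, and of the 6 without 3 did.

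By complex, the counts of complex IV mRNAs summed to 26322 to 28546 CPM of the library total in the controls, 26525 in S4 and 41639 and 48182 in S5 and S6. Complex III, which is MT-CYB alone, had 3141 to 3429, 3287, and 5397 and 6076 CPM. The 7 complex I mRNAs summed to 19586 to 21293 CPM in the controls, 17623 in S4 and 19347 and 22795 in S5 and S6, and the ATP synthase mRNAs to 3747 to 4345, 3541, and 4071 and 5311 CPM. S5 therefore lay within or below the control range for complexes I and V and above it for III and IV.

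MT-ND5, the last complex I subunit on the heavy strand, was lower in all 3 libraries labelled sh-SOX9-AS1, S4 included: 5268, 4899 and 5128 CPM in S1 to S3 and 3865, 4069 and 4557 CPM in S4 to S6. The groups did not overlap, yet the gene did not pass with all libraries (−0.29 ± 0.09, adjusted p = 0.207). Without S4 it was lower with −0.25 ± 0.08 (adjusted p = 0.0210). That call is lost when S1 or S2 is left out too (−0.22 and −0.28, adjusted p = 0.10 and 0.0599). With S6 as the lone library of its arm the value was −0.16 (adjusted p = 0.180). Its share of complex I counts was 22.6% to 23.03% in the controls and 20.0%, 19.0% and 17.8% in S4 to S6 (exact permutation p = 0.1).

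Neither rRNA of MDA-MB-468 passed as higher. MT-RNR1 stood at 1292, 1079.9 and 1036 CPM in the controls and at 1007, 795 and 1056 CPM under the shRNA (−0.25 ± 0.14, adjusted p = 0.331). Without S4 it passed as lower (−0.30 ± 0.11, adjusted p = 0.0468), but not when S1 or S2 was left out too (−0.20 and −0.34, adjusted p = 0.191 and 0.0603). With S6 as the lone library of its arm it had −0.11 (adjusted p = 0.551). MT-RNR2 had −0.18 ± 0.11 with all libraries and −0.22 ± 0.09 without S4, and passed in neither. The ratio of the rRNAs was 0.0973, 0.0881 and 0.1003 in S4 to S6, beside 0.0980 to 0.103 in the controls, with S5 clearly the lowest. The misc_RNA sum was 23.9 to 35.9 CPM in the controls, 34.6 in S4 and 102 and 103.5 in S5 and S6, and the histone sum 188 to 213, 205, and 293 and 292 CPM. Both sums thus set S5 and S6 apart from S4 and the controls, and their part in the changes of this line was not tested.

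Among the tRNAs of MDA-MB-468, MT-TL1 had 81, 70 and 84 counts in the controls and 72, 35 and 46 in S4 to S6. Without S4 it was lower (−0.72 ± 0.22, adjusted p = 0.0159). With S6 as the lone library of its arm it had −0.46 (adjusted p = 0.213). MT-TF, the phenylalanine tRNA, had 18, 14 and 4 counts and then 8, 3 and 2, and its call without S4 (−1.98 ± 0.70, adjusted p = 0.0343) rests on those 5 counts in S5 and S6. In that fit MT-TF had enough counts to be tested only through the controls S1 and S2, so its lower direction was largely set by the filter on low counts. MT-TT had 195, 111 and 75 counts and then 43, 55 and 96, overlapped, and did not pass in either fit. MT-TP went the other way, with 4, 13 and 9 counts and then 8, 13 and 22, and did not pass either (0.96 ± 0.54, adjusted p = 0.345, and 1.23 ± 0.48, adjusted p = 0.0533, without S4).

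**Figure D5:**
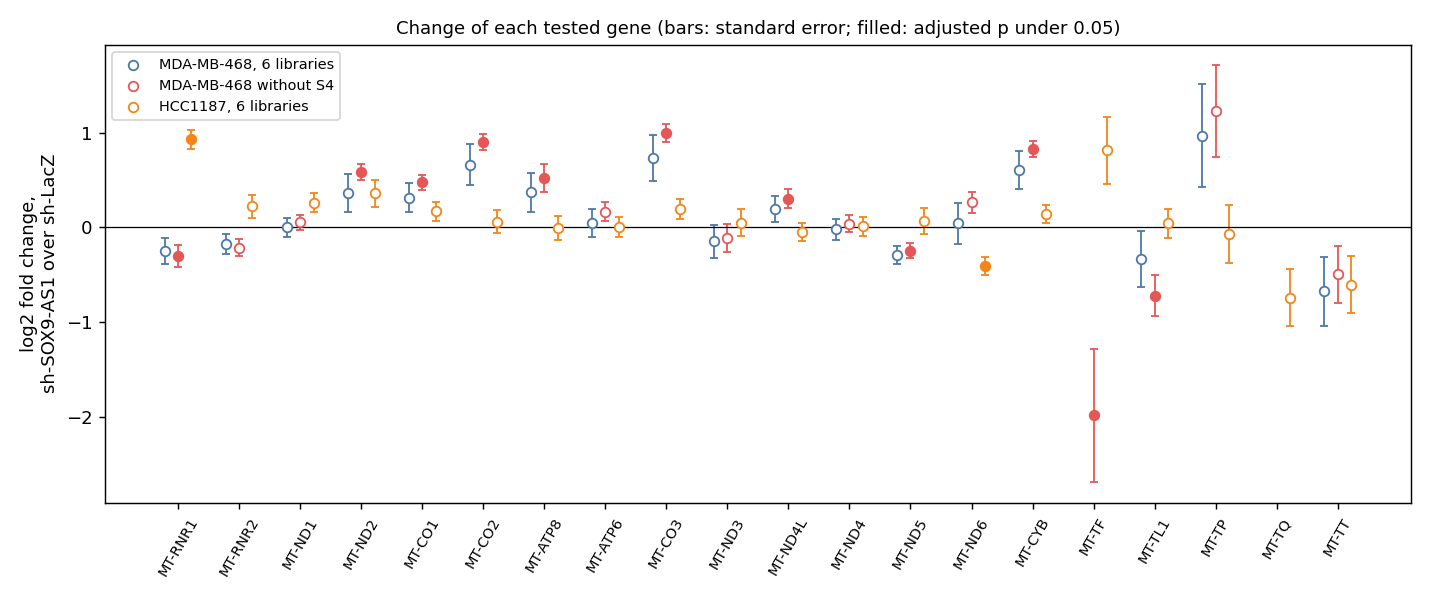
Log2 fold change of the rRNAs, mRNAs and 5 tRNAs, sh-SOX9-AS1 over sh-LacZ, with its standard error, for MDA-MB-468 with 6 libraries, MDA-MB-468 without S4 and HCC1187 with 6 libraries (filled points, adjusted p under 0.05; no point where a gene was not tested). MT-RNR1 is at 0.93 in HCC1187 and −0.25 in MDA-MB-468, and the filled points above 0.8 without S4 are MT-CO2, MT-CO3 and MT-CYB.

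The difference between the responses of the lines was tested as an interaction over all 12 libraries. MT-RNR1 differed, with a response 1.19 ± 0.18 higher on the log2 scale in HCC1187 (adjusted p = 0.00402). It was the only one of 21 tested mitochondrial genes to pass, against 3.75% of all 16328 genes in either direction. MT-RNR2 had 0.41 ± 0.19 (adjusted p = 0.244) and did not pass. Without S4, 7 of 24 passed, beside 25.6% of all genes: MT-RNR1 (1.23 ± 0.16), MT-TL1 (0.77 ± 0.27) and MT-TF (2.80 ± 0.80) with the higher response in HCC1187, and MT-CO2 (−0.84 ± 0.17), MT-CO3 (−0.80 ± 0.14), MT-CYB (−0.68 ± 0.13) and MT-ND6 (−0.67 ± 0.15) with the lower one.

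Counts of tRNA rows were few throughout, 121 to 389 per library. MT-TR, the arginine tRNA, had 0 counts in lane 1 of all 12 libraries, where 0 counts allow up to 0.295 to 0.498 CPM per library (3 counts; this and the intervals cover counting error only). Together with MT-TR, 7 tRNA genes had at most 10 counts over all libraries, the others being MT-TN, MT-TK, MT-TG, MT-TH, MT-TS2 and MT-TL2. The tRNAs of valine (MT-TV), isoleucine (MT-TI), tryptophan (MT-TW), alanine (MT-TA), cysteine (MT-TC), tyrosine (MT-TY), serine (MT-TS1), aspartate (MT-TD) and glutamate (MT-TE) had at most 21 counts in any library and did not pass in the comparisons above where they were tested. MT-TE passed as higher in HCC1187 between the controls, among the alternatives run, only with no filter on low counts or without S2 or S3. It had 3, 3 and 3 counts in S1 to S3 and 11, 10 and 6 in S7 to S9. Without S2 or S3 it had enough counts to be tested only through HCC1187 libraries. Its higher direction there was thus largely set by the filter on low counts. In the HCC1187 controls MT-TL1 led with 330 counts, followed by MT-TP with 103, MT-TQ with 83 and MT-TT with 73. In the MDA-MB-468 controls MT-TT led with 381 counts, followed by MT-TL1 with 235. Adjacent tRNA genes can also share bases, as MT-TI and MT-TQ do on opposite strands over 3 bases, so these small counts are uncertain.

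Transcription, processing and decay of mitochondrial RNA depend on nuclear genes, of which 54 were listed. Under sh-SOX9-AS1 in HCC1187, 3 of the 54 rose, 6 fell and 45 did not pass, beside 9.78% higher and 13.1% lower among all genes tested. TFAM, which packages the mitochondrial genome and starts its transcription, fell from 125.8, 142 and 115 CPM to 81.0, 98.4 and 99.2 CPM, without overlap (−0.47 ± 0.10, adjusted p = 0.00155). The coactivators of the PGC-1 family PPRC1 (−0.31 ± 0.09) and PPARGC1B (−0.47 ± 0.15), the RNA granule protein GRSF1 (−0.28 ± 0.09) and the helicase and nuclease DNA2 (−0.27 ± 0.09) fell. DGUOK, which makes nucleotides for mitochondrial DNA (0.40 ± 0.10), FASTK, whose mitochondrial form is known to act on MT-ND6 RNA (0.44 ± 0.13), and TFB1M, which methylates the small rRNA (0.36 ± 0.12), rose. FASTK overlapped, with 78.4, 63.2 and 69.7 CPM in the controls and 124, 70.8 and 95.1 CPM in S10 to S12. A link between FASTK and MT-ND6 was not tested. NSUN3, which modifies the methionine tRNA and is named after its value was seen, also fell (−0.34 ± 0.12). The mitochondrial RNA polymerase POLRMT had a change of 0.00 ± 0.10, and the mRNA-stabilising partners LRPPRC (−0.02 ± 0.09) and SLIRP (0.24 ± 0.10, adjusted p = 0.0817) did not pass.

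In MDA-MB-468 0 of 52 tested genes of this list passed with all libraries in edgeR, DESeq2 or limma-voom, and 5 had an unadjusted p under 0.05 in edgeR. Among all genes 0.00733% passed in edgeR, and the number under that unadjusted level is given above with the mitochondrial genes. Leaving out S4, 13 genes of the list fell, 2 rose and 37 did not pass, beside 20.7% lower and 20.0% higher among all genes tested, and the median was −0.15. PPRC1 stood at 90.8, 93.0 and 85.1 CPM in the controls, 85.0 in S4 and 53.4 and 45.1 in S5 and S6 (−0.87 ± 0.10). TWNK, the helicase of mitochondrial DNA copying, stood at 36.1, 34.9 and 36.4 CPM, 41.1 in S4 and 22.2 and 18.4 in S5 and S6 (−0.82 ± 0.13). S4 again lay near the controls for both. The transcription factor TFB2M (−0.62 ± 0.13), the poly(A) polymerase MTPAP (−0.71 ± 0.16), the pseudouridine synthase PUS1 (−0.57 ± 0.12), PPARGC1B (−0.68 ± 0.15), the tRNA 3′ nuclease ELAC2 (−0.40 ± 0.09) and the rRNA methyltransferase MRM1 (−0.96 ± 0.22) fell, as did POLRMT (−0.48 ± 0.12) and SLIRP (−0.45 ± 0.12). RRM2B, a ribonucleotide reductase subunit (0.47 ± 0.15), and MTERF2, a termination factor family member (0.57 ± 0.21), rose, both named after their values were seen. TFAM (−0.32 ± 0.13, adjusted p = 0.0592) and LRPPRC (−0.15 ± 0.09) did not pass.

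Between the control libraries of the lines, 18 of the 53 tested genes of this list were higher in HCC1187, 20 were lower and 15 did not pass, beside 43.6% higher and 40.4% lower among all genes tested. Of the 9 transcription genes 6 were higher and 1 lower, and of the 14 genes of tails, stability and decay 1 was higher and 9 lower. TFB2M, which opens mitochondrial promoters, was lower, at 44.0, 49.0 and 46.9 CPM in S1 to S3 against 5.81, 6.70 and 5.44 in S7 to S9 (−2.95 ± 0.13). The decay nuclease REXO2 (−1.12 ± 0.09), the receptor ESRRA (−1.65 ± 0.11), the tRNA-processing subunit HSD17B10 (−0.96 ± 0.09) and LRPPRC (−0.68 ± 0.08) were lower too. The DNA polymerase subunits POLG (1.26 ± 0.08) and POLG2 (1.60 ± 0.13), MTERF2 (1.48 ± 0.15), POLRMT (0.62 ± 0.09) and TFAM (0.47 ± 0.10) were higher. The coactivator PPARGC1A had 0 counts in S1 to S3, where 0 counts allow at most 0.412 CPM, and 118, 94 and 103 counts in S7 to S9. In the interaction over all 12 libraries, 0 of the 54 genes passed in edgeR or limma-voom and 1 in DESeq2, and 6 had an unadjusted p under 0.05 in edgeR. Among all genes 3.75% passed there in edgeR, in either direction. Without S4, 12 of the 54 passed with the higher response in HCC1187 and 2 with the lower, beside 25.6% of all genes in either direction. The share of all genes in each direction is not given for this fit. Whether the split of 12 to 2 stands out was therefore not tested.

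Pieces of the mitochondrial genome also lie in the nuclear genome, and their near-identical sequence can draw or lose reads. The tables hold 407 such rows, of which 56 had counts, summing to 1.30% of the counts of the mitochondrial mRNAs. MTATP6P1 with 49394 counts and MTND2P28 with 13993 held 96.6% of these, followed by MTCO1P12 with 1226 and MTND4P12 with 460. The counts of MTATP6P1 were 0.120 to 0.179 of those of MT-ATP6 in each library, and those of MTND2P28 0.0471 to 0.0721 of those of MT-ND2, so the levels of MT-ATP6 and MT-ND2 are uncertain by about those shares. In MDA-MB-468 without S4 MTND2P28 rose by 0.76 ± 0.09 and MTCO1P12 by 0.59 ± 0.15, in the direction of MT-ND2 and MT-CO1. Adding the 4 copies to their genes changed no number of passing members in any comparison.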

How the data were processed

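RNA-seq gene counts of 12 libraries were analysed. Per the labels' protocols RNA was extracted with TRIzol and made into stranded TruSeq mRNA libraries with paired reads of 76 bp. The deposited values are whole-number counts per gene. The submitters' processing notes name FastQC 0.11.9, MultiQC 1.11, Trimmomatic 0.39, HISAT2 2.1.0, SAMtools, featureCounts 2.0.0 and GRCh38, while no source used here gives the annotation release or how strand and multi-mapping reads were handled. Columns were matched to groups through the description shared by the samples of a group; they carry lane labels and no replicate number, so lane 1 of each library was used and 24 of 36 count columns were not. The sh-SOX9-AS1 columns include BLANCO in their names, a term left undefined. Deposited gene lengths equalled those of GENCODE v29 for all 37 members, and sequences and coordinates come from it.

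Genes were tested with edgeR 4.0.16 (R 4.3.3), by the quasi-likelihood test with TMM scaling, on genes kept by filterByExpr at a minimum count of 10 and a total of 15, each comparison in its own fit over all genes, with Benjamini-Hochberg adjustment. Each standard error is the size of the log2 change over the root of F. Class sums use plain library totals and exact permutation tests; their 95% Wilson intervals were at most 0.0200 percentage points either way for the mRNA share. No pair of libraries was a copy, the closest, S1 and S2, differing by 1.83 chi-square units per degree of freedom. The script was tested on simulated data. Alternatives were DESeq2 1.42.0, limma-voom 3.58.1, other scalings and filters, 1 fit for all libraries and leaving out each library. All members are named. From the nuclear list up to 8 passing genes by smallest p were named per comparison, besides POLRMT, TFAM, LRPPRC and SLIRP, and the 4 nuclear copies with most counts. In MDA-MB-468 this was applied to the fit without S4. The members and lists were chosen with earlier results of these data known.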

Additional observations from a re-analysis of the deposited data

Results flagged for a closer look

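The response to sh-SOX9-AS1 differed between the lines, by the interaction test of edgeR over 12 libraries, for MT-RNR1: the log2 response in HCC1187 minus that in MDA-MB-468 was 1.19 (adjusted p = 0.00402), with the 3 HCC1187 sh-SOX9-AS1 libraries above all their controls and MDA-MB-468 overlapping. Without S4 the same test gave 1.23 for MT-RNR1, 2.80 for MT-TF, 0.77 for MT-TL1, −0.84 for MT-CO2, −0.80 for MT-CO3, −0.68 for MT-CYB and −0.67 for MT-ND6. The value for MT-TF rests on 3 and 2 counts in S5 and S6, and the values for the mRNAs on the same 2 libraries. With S4 kept, the values were −0.60 for MT-CO2, −0.53 for MT-CO3, −0.45 for MT-CYB and −0.44 for MT-ND6, and none of these passed.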

How the results depend on the processing

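For 34 single-gene results, those of members that passed in a comparison or came to pass in it without S4 (MT-TF in MDA-MB-468, filtered out there with all 6 libraries, aside), 556 recomputed values kept their direction and their side of the threshold, 113 came to pass, 10 no longer passed and 0 reversed. MT-RNR1 between the control libraries did not pass, is not among these, and changed sign from −0.15 to 0.09 with library totals alone. In MDA-MB-468, 0 members passed with all 6 libraries, but 5 were higher with no filter on low counts and 1 with all 12 libraries in 1 fit, and 0 when a library other than S4 was left out. Without S4, 7 were higher and 4 lower, the same numbers with the nuclear copies added or with scaling that leaves out mitochondrial rows; library totals alone gave 7 and 5, DESeq2 6 and 1, and limma-voom 8 and 3. Leaving out a further library gave 5 to 8 higher and 0 to 6 lower; without S5 or S6 too, the arm is 1 library, assumed to vary like the controls. These fits beyond the one without S4 were added after the data were seen. In HCC1187 3 members were higher with library totals alone (MT-RNR1, MT-ND1 and MT-ND2), 2 with limma-voom and 4 with no filter, and 1 to 4 when a library was left out; 0 were lower with all 12 libraries in 1 fit and 1 to 2 when a library was left out. Between the control libraries 6 were higher with library totals alone, 5 with no filter and up to 5 without S9, while MT-ND2 did not pass without S9 and MT-ATP6 without S8 or S9. For the difference between the lines 2 were higher and 3 lower with no filter, and 3 and 4 without S4. The tRNA sum reversed in HCC1187 to −0.0060 with totals scaled by TMM and to −0.12 without S12 (range −0.12 to 0.14 leaving out each library), and between the lines to 0.00093 without S8 and 0.12 without S1 (range −0.19 to 0.12). The cause of these changes was not tested. The share of all genes passing is given above only for the main fits and the fits without S4. For the other settings these counts do not show whether members gained or lost calls more than other genes.

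No paired analysis was possible because the count columns carry no replicate number, and the replicate block was not run. Depth limits the tRNAs most, at 121 to 389 counts per library from 1 of 3 lanes. A difference between tRNAs of a few counts was not detectable at this depth.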
